A study of Mus musculus with 3 samples.

Results

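The 10 genes described here encode matrix metalloproteinases (MMPs), a pair of membrane-anchored ADAM proteases and a pair of tissue inhibitors of metalloproteinases (TIMPs). They were chosen by name: Mmp8, Mmp9, Mmp12, Mmp13, Mmp14, Mmp19, Adam8, Adam17, Timp1 and Timp2, which are 10 of the 22350 protein-coding genes of chromosomes 1 to 19 and X in the GENCODE M1 annotation of mm9. The study mapped RNA polymerase II (Pol_II) in primary bone marrow-derived macrophages to ask where extragenic Pol_II binding reflects transcription. The libraries analysed here are ChIP-Seq libraries made with an antibody to the C-terminal domain of Pol_II phosphorylated at Ser5, plus input DNA. All 3 libraries came from female Fvb mice (Fvb/Hsd in the methods of the study), from marrow cells grown in medium with L929-conditioned medium and taken on day 7 of differentiation. The untreated Ser5 library and the input library were from cells without stimulation, and the LPS Ser5 library was from cells that received lipopolysaccharide (LPS, a bacterial wall component) at 10 ng/ml for 2 h. The input library had no antibody, and there was no input from LPS-treated cells. Each condition had 1 library, so no spread between replicates could be estimated, no test was made, and every interval given covers counting error only. The number of mice behind each library was not given in the sources used here.

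MMPs are zinc-dependent endopeptidases that cut collagens, elastin, gelatin and other matrix proteins, and many of them also trim cytokines and chemokines. Most are secreted as inactive zymogens, while a few are held at the membrane. ADAM proteases sit in the membrane and release the extracellular parts of other membrane proteins. TIMPs bind the active site of MMPs, and some also take part in their activation. Macrophages are a known source of several of these proteases, and their genes differ widely in how they are controlled. Ser5-phosphorylated Pol_II is typically densest near transcription start sites (TSSs) and extends into the bodies of transcribed genes, so its tag density was read as polymerase occupancy and not as RNA level.

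The untreated Ser5, LPS Ser5 and input libraries held 7616771, 6249819 and 7533308 tags on chromosomes 1 to 19 and X, and 84.5%, 81.4% and 82.7% of the tags of each were at distinct positions. The deposited tags spanned 45 bases in the untreated library and 30 bases in the LPS library, which is the reverse of the trimming that the methods of the study assign to them. The treatment labels were checked with 6 LPS-response genes (Ccl5, Tnf, Il1b, Cxcl10, Nfkbia and Il6): 6 of 6 were at least 2 times higher in the library labelled LPS, with a median ratio of 38.6 over gene bodies. Of 6 macrophage markers (Csf1r, Emr1, Cd68, Itgam, Lyz2 and Mpeg1), 6 exceeded the input at least 2 times over their gene bodies in untreated cells and 5 did after LPS. After LPS, 4 of the 6 were at least 2 times lower and 1, Emr1, was 3.01 times higher. Over gene bodies, 1 of 6 neutrophil markers in untreated cells (Ngp) and 2 after LPS (Ngp and Camp), 1 of 4 T cell markers in both (Cd3d) and 0 of 4 B cell, 0 of 5 fibroblast and 0 of 3 epithelial markers exceeded the input in the same way. Across 17386 coding genes that had 10 or more tags in both Ser5 libraries together, the median LPS to untreated ratio was 0.873 over gene bodies, so a ratio of 1 lay slightly above the typical gene. In bulk libraries, fewer cells of a type and less polymerase per cell cannot be told apart.

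The promoters of 6 members are shown here because they carry, or lack, the short motifs to which the responses below can be set side by side. Mmp13, Mmp12, Mmp19 and Mmp9 were the members with a match to the AP-1 motif TGANTCA, Timp2 had matches of other kinds, and Adam17 had none. Each sequence runs 5′ to 3′ on the strand of its gene from 250 bases before the TSS to 25 bases beyond it (the TSS counted as 0, and the last base printed as position 24), and was read from mm9. Capitals mark matches to AP-1 (TGANTCA), an interferon-response core (GAAANNGAA), the ETS/PU.1 core (GAGGAA) or TATAAA, on either strand.
Mmp13, chr9:7272264-7272538, plus strand: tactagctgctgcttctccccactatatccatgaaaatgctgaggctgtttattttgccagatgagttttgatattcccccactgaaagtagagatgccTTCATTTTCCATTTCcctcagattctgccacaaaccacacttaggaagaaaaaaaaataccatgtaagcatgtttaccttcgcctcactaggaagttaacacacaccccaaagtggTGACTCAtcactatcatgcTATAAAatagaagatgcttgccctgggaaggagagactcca
Mmp12, chr9:7347124-7347398, plus strand: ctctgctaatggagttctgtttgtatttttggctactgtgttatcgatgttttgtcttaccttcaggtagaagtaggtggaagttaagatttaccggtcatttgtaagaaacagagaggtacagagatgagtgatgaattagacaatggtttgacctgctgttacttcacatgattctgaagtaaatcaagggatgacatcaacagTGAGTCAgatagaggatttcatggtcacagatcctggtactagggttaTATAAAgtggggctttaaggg
Mmp19, chr10:128227759-128228033, plus strand: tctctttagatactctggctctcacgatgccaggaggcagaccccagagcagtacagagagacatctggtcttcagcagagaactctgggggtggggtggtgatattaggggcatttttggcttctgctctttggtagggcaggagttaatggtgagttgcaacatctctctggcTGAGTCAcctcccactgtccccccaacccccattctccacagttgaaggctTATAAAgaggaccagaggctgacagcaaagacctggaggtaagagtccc
Mmp9, chr2:164773469-164773743, plus strand: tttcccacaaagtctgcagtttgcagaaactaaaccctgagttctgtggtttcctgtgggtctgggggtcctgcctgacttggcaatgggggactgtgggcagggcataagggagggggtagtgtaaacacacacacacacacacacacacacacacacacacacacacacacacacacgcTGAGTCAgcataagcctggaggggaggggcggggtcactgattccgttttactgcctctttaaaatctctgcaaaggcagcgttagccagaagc
Timp2, chr11:118216796-118217070, minus strand: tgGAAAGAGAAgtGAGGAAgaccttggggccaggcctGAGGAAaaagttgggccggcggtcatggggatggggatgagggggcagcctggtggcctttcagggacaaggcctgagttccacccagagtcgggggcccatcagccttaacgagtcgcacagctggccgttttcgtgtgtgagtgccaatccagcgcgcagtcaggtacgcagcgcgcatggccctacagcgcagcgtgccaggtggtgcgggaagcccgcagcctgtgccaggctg
Adam17, chr12:21379430-21379704, minus strand: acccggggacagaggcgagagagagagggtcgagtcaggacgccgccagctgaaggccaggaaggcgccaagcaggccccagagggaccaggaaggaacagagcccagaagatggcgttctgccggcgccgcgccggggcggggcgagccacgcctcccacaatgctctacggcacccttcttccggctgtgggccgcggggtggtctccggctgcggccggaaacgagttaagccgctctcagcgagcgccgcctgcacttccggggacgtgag

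These motifs were searched over 300 bases, from 250 before to 50 from the TSS onward. In the Mmp13 promoter the capitals are a pair of overlapping GAAANNGAA matches on the minus strand from -151 to -137, an AP-1 match from -35 to -29 and TATAAA from -16 to -11. The AP-1 match lay from -44 to -38 in Mmp12, from -75 to -69 in Mmp19 and from -69 to -63 in Mmp9. An AP-1 match was found in 6.78% of the 22350 coding promoters and in 4 of the 10 members. TATAAA, the sequence of many tissue-restricted promoters, was found in Mmp8, Mmp12, Mmp13 and Mmp19 and in 13.4% of all promoters. It lay from -24 to -19 in Mmp19. In Mmp8 (from -3 to 2, on the minus strand) and Mmp12 (from 4 to 9) it lay at or past the TSS used here, not upstream of it. The GAAANNGAA match occurred in Mmp13 and Timp2 and in 9.02% of all promoters, and GAGGAA in Mmp8 and Timp2 and in 27.9%. The kappaB consensus was found in 9.16% of all promoters and in 0 of the 10 members, and Mmp14, Adam8, Adam17 and Timp1 had no match of any of these kinds. A match is a stretch of letters and was not tested as a binding site. The same windows differed widely in CpG content. The observed to expected CpG ratio was 0.868 in Adam17, 0.576 in Timp2 and 0.468 in Mmp14, against a median of 0.553 over all promoters. It was 0.384 in Timp1, 0.294 in Adam8 and between 0.0481 (Mmp19) and 0.274 (Mmp12) in the other five MMP genes.

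Ser5 occupancy after LPS moved in opposite directions within the family. Levels are given as tags per 1000000 tags (TPM) per kb, over the gene body (the whole gene record) or over a TSS window of 1 kb on either side of the start of the coding transcript with the longest coding sequence. A difference was counted where the ratio of TPM was at least 2 times in either direction with at least 10 tags over both libraries. Over gene bodies 3 members were higher after LPS (Mmp12, Mmp13 and Mmp14), 3 were lower (Mmp19, Adam8 and Timp2) and 4 were neither (Mmp8, Mmp9, Adam17 and Timp1). Among all coding genes tested, 5.82% were higher and 11.2% were lower by the same rule. In the TSS window 2 members were higher (Mmp13 and Mmp14), against 5.71% of coding genes, and 3 were lower (Mmp19, Adam8 and Timp2), against 14.1%. The median LPS to untreated ratio of the members was 1.33 over gene bodies and 1.09 over TSS windows, beside 0.873 and 0.834 for coding genes.

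Relative to input, 4 members (Mmp14, Adam8, Adam17 and Timp2) were at least 2 times higher in untreated cells over the gene body, where 37.6% of coding genes were. After LPS the count was also 4, now Mmp13, Mmp14, Adam8 and Adam17, against 32.8% of coding genes. Over TSS windows the untreated count was 4 (the same genes as over the body), against 72.1%, and the LPS count was 6 (Mmp9, Mmp13, Mmp14, Adam8, Adam17 and Timp2), against 70.7%. Mmp9 was counted on 15 LPS and 8 input tags (ratio 2.26), with an interval of 0.900 to 6.16 that includes 1. With 1 tag per position and strand Mmp9 dropped out and the count was 5, against 76.0%. A peak deposited by the authors overlapped the gene body or TSS window in 7 members in untreated cells, against 54.0% of coding genes, and in 6 members after LPS, against 51.4%. Mmp8 and Mmp19 had a peak in untreated cells and none after LPS, and Mmp13 had peaks after LPS and none before. Mmp12 and Timp1 had no peak in either library. Input comparisons depend on the scaling, because 50.2% of untreated tags, 46.7% of LPS tags and 95.5% of input tags lay outside the Ser5 peaks. Scaled to the tags outside the peaks, 8 members exceeded the input at least 2 times at the TSS after LPS, against 78.6% of coding genes, and 7 did so in untreated cells, against 78.0%.

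**Figure D1:**
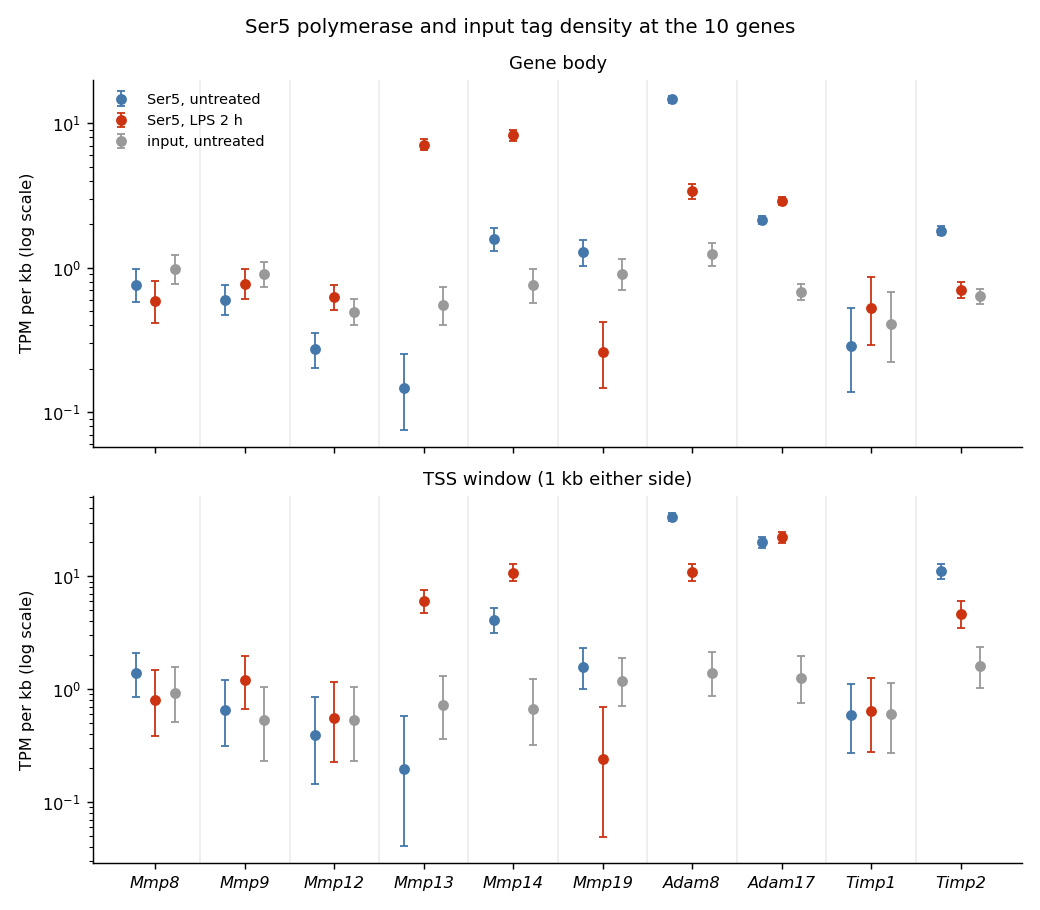
Tag density (TPM per kb, log axis) over the gene body (top) and TSS window (bottom) of the 10 genes in the untreated Ser5 (blue), LPS Ser5 (red) and input (grey) libraries, 1 library each, with bars for 95% exact Poisson intervals. Adam8 was highest in untreated cells (14.6 over the body), Mmp14 and Mmp13 were highest after LPS (8.27 and 7.10), and Mmp8, Mmp9, Mmp12 and Timp1 were below 1 TPM per kb over the body in both Ser5 libraries.

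Mmp13, a collagenase that cleaves fibrillar collagen, was the member with the largest ratio. Its gene (ENSMUSG00000050578.9) lies at chr9:7272514-7283333 on the plus strand. Over the gene body it had 12 tags in untreated cells, 480 after LPS and 45 in the input, that is 0.146, 7.10 and 0.552 TPM per kb. Only the LPS library stood above the input here, and the untreated library lay below it. The LPS to untreated ratio was 48.7, with an interval of 27.6 to 95. This took Mmp13 from a level higher than that of 35.1% of coding genes to one higher than that of 95.2%. In the TSS window the tags were 3, 75 and 11, for a ratio of 30.5 (interval 10.0 to 151). The signal started at the TSS: the 1 kb upstream side of the window held 1 and 4 tags in the untreated and LPS libraries, and the downstream side held 2 and 71. After LPS, 11 peaks with scores up to 987 covered 58.7% of the gene and window. The longest of them, of 1663 bp, had its midpoint in an intron 4822 bp from the TSS and held 2, 124 and 6 tags in the untreated, LPS and input libraries. In the 5 kb past the 3′ end the tags were only 4 and 17. In the TSS window 13.5% of positions had a 30-base sequence that occurs elsewhere in the genome, and 2.60% in the gene body. All 480 and 75 LPS tags lay at positions with a unique sequence. This was fixed in advance, because the LPS tags span 30 bases and only uniquely mapping reads were kept.

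Mmp14, the membrane-type protease also called MT1-MMP, cleaves collagen at the cell surface and activates pro-MMP2. Its gene (ENSMUSG00000000957.8) lies at chr14:55050441-55060095 on the plus strand. Unlike Mmp13, it was already above input in untreated cells. The gene body had 116 tags in untreated cells, 499 after LPS and 55 in the input, or 1.58, 8.27 and 0.756 TPM per kb. The LPS to untreated ratio was 5.24 (interval 4.28 to 6.47). Around the TSS the tags were 62, 135 and 10, and the ratio was 2.65 (interval 1.95 to 3.65). Within this window the sides differed: upstream of the TSS the tags were 40 and 47 (ratio 1.43, interval 0.919 to 2.24). On the downstream side they were 22 and 88 (ratio 4.87, interval 3.03 to 8.17), close to the 5.33 of the rest of the body and the 5.00 of the 5 kb past the 3′ end. In untreated cells the gene had 1 peak, of 690 bp, with its midpoint 97 bp upstream of the TSS. After LPS it had 10 peaks that covered 70.3% of the gene and window, the longest of 2843 bp. A separate peak at the edge of Mrpl52, 4710 bp upstream of the Mmp14 TSS, held 120 tags before and 87 after LPS, a ratio of 0.884. A weaker LPS peak within Mrpl52, 4123 bp upstream of the Mmp14 TSS, held 8 and 17 tags, a ratio of 2.59 (interval 1.06 to 6.93).

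Mmp12, the macrophage metalloelastase, had little signal in any library. Its record (ENSMUSG00000049723.8) lies at chr9:7344381-7369499 on the plus strand and begins 2993 bp before the TSS used here. The gene body had 52, 98 and 94 tags in the untreated, LPS and input libraries, or 0.272, 0.624 and 0.497 TPM per kb. The LPS to untreated ratio was 2.30, but its interval of 1.62 to 3.28 reached below 2. The LPS library was 1.26 times the input (interval 0.937 to 1.69), and no peak was called. Scaled to the tags outside the peaks, that ratio was 2.57. The TSS window held 6, 7 and 8 tags, so no difference was detectable there at this depth. Beyond the first 1 kb after the TSS the tags were 41 and 89 (ratio 2.65, interval 1.81 to 3.93), with 12 and 34 of them in the distal part of the gene. The last 1261 bp of the record overlap Mmp1b on the other strand, a stretch with 0 tags in both Ser5 libraries. In the body, 14.2% of positions had a repeated 30-base sequence.

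Mmp13 and Mmp12 belong to a cluster of 10 MMP genes that spans 427 kb of chromosome 9, with Mmp13 at one end, its TSS 74860 bp from that of Mmp12 and 285915 bp from that of Mmp8. Within the cluster, 1 gene had a peak in untreated cells (Mmp8) and 1 had peaks after LPS (Mmp13). The other genes were at or below 0.651 TPM per kb in untreated cells, that of Mmp27, apart from Mmp8 at 0.757. After LPS, Mmp3 (stromelysin 1) had 0.221 TPM per kb, Mmp10 (stromelysin 2) 0.101, Mmp1a (a collagenase) 0.0754, Mmp20 (enamelysin) 0.134 and Mmp7 (matrilysin) 0.128. All of these were below their input values, which ran from 0.240 to 0.460. The 4 untreated and 1 LPS tags of Mmp1b were too few to compare. Mmp27, which neighbours Mmp8, had 52 and 20 tags and a ratio of 0.469 (interval 0.265 to 0.799), with an input of 0.987 TPM per kb above both Ser5 values.

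**Figure D2:**
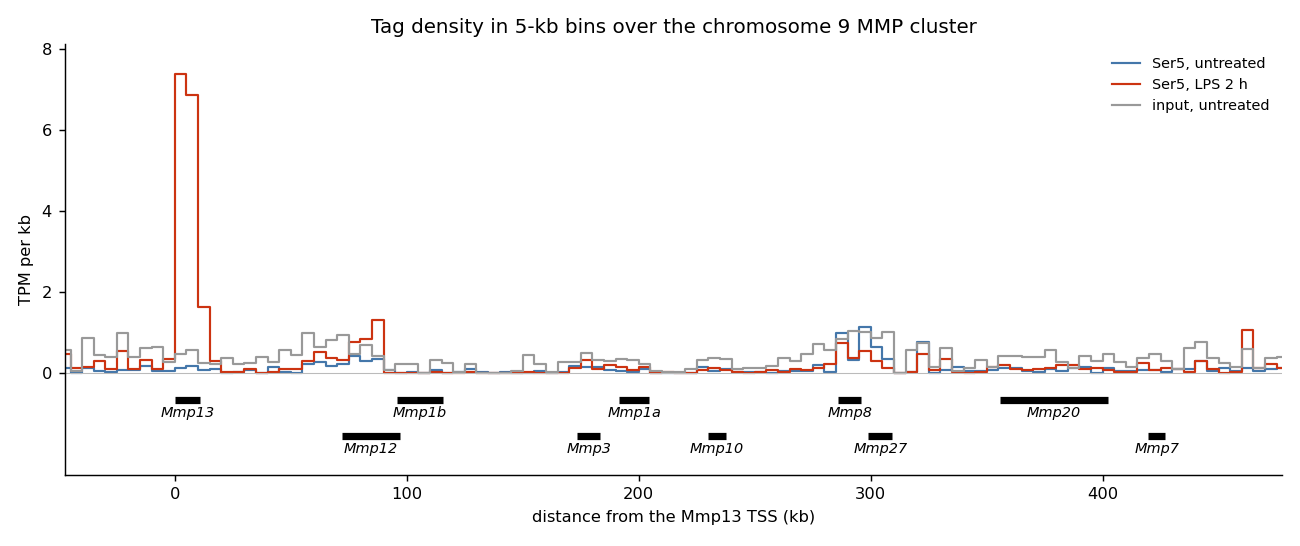
Tag density (TPM per kb, linear axis) in 5-kb bins by distance (kb) from the Mmp13 TSS over the MMP cluster of chromosome 9, in the untreated Ser5 (blue), LPS Ser5 (red) and input (grey) libraries, with black bars for the genes. The LPS library rises over Mmp13, where the gene body had 480 tags against 12 in untreated cells, and stays at or near the other curves over most of the remaining cluster.

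Mmp19, a secreted MMP that cuts basement membrane components, showed the smallest ratio of the 10. Its gene (ENSMUSG00000025355.6) lies at chr10:128228009-128237880 on the plus strand. The gene body had 96 tags in untreated cells, 16 after LPS and 67 in the input, or 1.28, 0.259 and 0.901 TPM per kb. The ratio was 0.203 (interval 0.112 to 0.347). Untreated cells were 1.42 times the input (interval 1.03 to 1.97), a level above that of 69.1% of coding genes, and the LPS library lay below the input. Scaled to the tags outside the peaks, untreated cells were at least 2 times the input over the body. The TSS window held 24, 3 and 18 tags, for a ratio of 0.152 (interval 0.0294 to 0.502). In untreated cells a peak of 305 bp, with a score of 97.2, lay over the TSS and held 20 tags against 3 after LPS. A second, weaker peak near the 3′ end held 11 tags against 0, but lies in 789 bp shared with 1110012D08Rik on the other strand. That overlap held 14 of the 96 untreated tags and 0 of the LPS tags. In the 5 kb past the 3′ end the tags were 338 and 203, a ratio of 0.732 (interval 0.612 to 0.874). The record of 1110012D08Rik extends into this flank, where its 5′ end lies, since that gene is on the minus strand. An untreated peak inside it, with its midpoint 13121 bp from the Mmp19 TSS, held 76 and 32 tags. That is a ratio of 0.513 (interval 0.328 to 0.785). Just upstream of that 5′ end lies another untreated peak, with its midpoint 14314 bp from the Mmp19 TSS. It held 237 and 160 tags, a ratio of 0.823 (interval 0.669 to 1.01), so the flank ratio does not describe Mmp19 alone.

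Mmp8 and Mmp9 are best known as the collagenase and the gelatinase stored in neutrophil granules, and Mmp9 is also made by macrophages. Mmp8 (ENSMUSG00000005800.2) lies at chr9:7558429-7568486 on the plus strand, and had 58, 37 and 74 body tags in the untreated, LPS and input libraries. Its levels were 0.757, 0.589 and 0.977 TPM per kb, with a ratio of 0.777 (interval 0.500 to 1.19). The TSS window had 21, 10 and 14 tags (ratio 0.580, interval 0.244 to 1.29), and a weak peak of score 66.2 lay over the TSS in untreated cells with 16 tags against 8. Both intervals include 1, so no difference was detectable at this depth. Mmp9 (ENSMUSG00000017737.2) lies at chr2:164766280-164781350 on the plus strand, and its record begins 7439 bp before the TSS of the full coding transcript. Over the record it had 69, 73 and 102 tags, or 0.601, 0.775 and 0.898 TPM per kb (ratio 1.29, interval 0.915 to 1.82). Its TSS window held 10, 15 and 8 tags (ratio 1.83, interval 0.768 to 4.55), and the rest of the body beyond it had 23, 24 and 44. Its peaks, of scores 70.7 in untreated cells and 71.3 after LPS, lay in the long first part of the record, 5209 and 5113 bp upstream of that TSS. The gelatinase transcript itself thus had no peak in either library. The 6 neutrophil markers ran over the body from 0.133 to 2.07 TPM per kb in untreated cells and from 0.103 to 2.23 after LPS, with none at 0. Their input ran from 0.204 to 1.11. The median was 0.434 in untreated cells and 0.357 after LPS, both below the 0.709 of the input.

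Adam8, a membrane protease of myeloid cells that sheds adhesion receptors and cytokine receptors, was the most occupied member in untreated cells. Its gene (ENSMUSG00000025473.10) lies at chr7:147164831-147178461 on the minus strand. The gene body had 1512 tags in untreated cells, 287 after LPS and 127 in the input, or 14.6, 3.37 and 1.24 TPM per kb. Untreated cells were 11.8 times the input (interval 9.82 to 14.2), a level above that of 98.1% of coding genes. After LPS the level was still 2.72 times the input (interval 2.20 to 3.38), and the LPS to untreated ratio was 0.231 (interval 0.203 to 0.263). Around the TSS there were 514, 136 and 21 tags, and the ratio was 0.322 (interval 0.265 to 0.390). In untreated cells 7 peaks covered 90.3% of the gene and window, the longest of 6526 bp. After LPS 5 peaks covered 13.9%, and the strongest, with a score of 713, lay 93 bp upstream of the TSS. The 5 kb past the 3′ end, which lies inside the non-coding Gm16201 annotated on the other strand, had 524 and 90 tags, a ratio of 0.209 (interval 0.165 to 0.262). Another gene, 6430531B16Rik, is also annotated in this stretch. The lower level thus extended through the gene into its 3′ flank, where the tags cannot be assigned to a single gene.

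Adam17, the protease known as TACE that releases soluble TNF and TNF receptors, was occupied in both states. Its gene (ENSMUSG00000052593.8) lies at chr12:21329370-21379493 on the minus strand. Over the body it had 814, 909 and 256 tags in the untreated, LPS and input libraries, or 2.13, 2.90 and 0.678 TPM per kb. The ratio of 1.36 (interval 1.24 to 1.50) excluded 1 by counting error but was below 2. In the TSS window the tags were 307, 277 and 19, and the ratio of 1.10 had an interval of 0.931 to 1.30. The levels at the start, 20.1 and 22.1 TPM per kb, were the highest TSS levels after LPS and next to Adam8 before it. The body beyond the window was where the libraries differed, with 663 and 768 tags (ratio 1.41, interval 1.27 to 1.57). The number of peaks was 10 before and 23 after LPS, and the share of the gene and window they covered was 9.71% and 19.1%. The peak over the TSS was nearly the same in both, with scores of 2272 and 2078. The 3′ end meets the convergent gene Iah1, with which it shares 97 bp.

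Timp2, an inhibitor that also assists the activation of pro-MMP2 by MMP14, was lower after LPS. Its gene (ENSMUSG00000017466.3) lies at chr11:118162383-118217054 on the minus strand. Over the body it had 748, 240 and 261 tags in the untreated, LPS and input libraries, or 1.80, 0.702 and 0.634 TPM per kb. The ratio was 0.391 (interval 0.337 to 0.453), and the LPS library came down to 1.11 times the input (interval 0.926 to 1.33). The window at the TSS had 169, 58 and 24 tags, and the ratio was 0.418 (interval 0.305 to 0.567). At the start the LPS library was 2.91 times the input (interval 1.78 to 4.90). Scaled to the tags outside the peaks, the LPS library was 2.27 times the input over the body and 5.96 times at the TSS. An intronic peak 6401 bp downstream of the TSS, of 518 bp and score 672, held 118 tags before and 33 after LPS, a ratio of 0.341 (interval 0.224 to 0.505). It was the strongest peak of the gene after the one at the TSS. Past the 3′ end 79 and 5 tags were found in 5 kb, a ratio of 0.0771 (interval 0.0244 to 0.188). BC100451 lies within the gene on the same strand, and held 97, 24 and 43 of the tags.

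Timp1, an inhibitor of most secreted MMPs, had few tags in any library. Its gene (ENSMUSG00000001131.5) lies at chrX:20447292-20451861 on the plus strand, wholly inside Syn1 on the opposite strand. Over its 4.570 kb it had 10, 15 and 14 tags in the untreated, LPS and input libraries, or 0.287, 0.525 and 0.407 TPM per kb. The ratio of 1.83 had an interval of 0.768 to 4.55. The TSS window had 9, 8 and 9 tags. The LPS library was 1.29 times the input over the body (interval 0.581 to 2.89) and 1.07 times at the TSS (0.360 to 3.13), which became 2.64 and 2.19 times when scaled to the tags outside the peaks. With counts this low, even a 4-fold difference over the body lay within the interval.

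**Figure D3:**
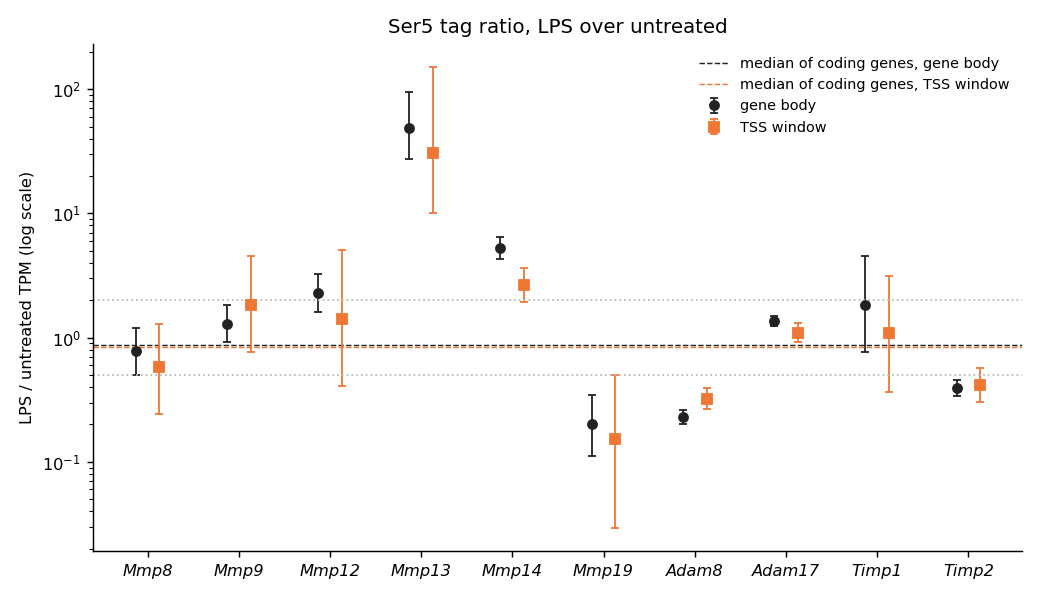
Ratio of LPS to untreated Ser5 TPM (log axis) over the gene body (black circles) and TSS window (orange squares) of the 10 genes, 1 library per condition, with 95% exact intervals for counting error. Dashed lines mark the medians of coding genes (0.873 and 0.834) and dotted lines the 2-fold limits; Mmp13 and Mmp14 lie above the upper limit in both regions, and Adam8, Mmp19 and Timp2 below the lower one.

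The members also differed in how polymerase was divided between the start and the body. The density of the TSS window over that of the rest of the body had a median of 10.4 in untreated cells and 10.00 after LPS over coding genes with at least 10 tags in each part, and 1.75 in the input. Adam17 and Timp2 were start-weighted like the typical gene. Adam17 had a ratio of 11.4 (interval 9.89 to 13) in untreated cells and 8.85 (7.68 to 10.2) after LPS, and Timp2 had 7.66 (6.42 to 9.11) and 8.46 (6.19 to 11.4). The intervals of the 2 libraries overlapped for both genes. Adam8 and Mmp14 were far less start-weighted. For Adam8 the ratio was 2.71 (2.44 to 3.01) in untreated cells and 4.23 (3.38 to 5.28) after LPS, so the body was lower by more than the start. For Mmp14 it was 2.85 (2.04 to 3.97) and 1.42 (1.16 to 1.73), so the body was higher by more than the start. In neither gene did the intervals of the 2 libraries overlap. Mmp13 after LPS had 0.900 (0.694 to 1.15), a density in the body like the average of the whole window. That average joins 0.640 TPM per kb upstream of the TSS and 11.3 in the 1 kb downstream of it. The rest of the body had 6.66, so the start of the gene itself was denser than its body.

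**Figure D4:**
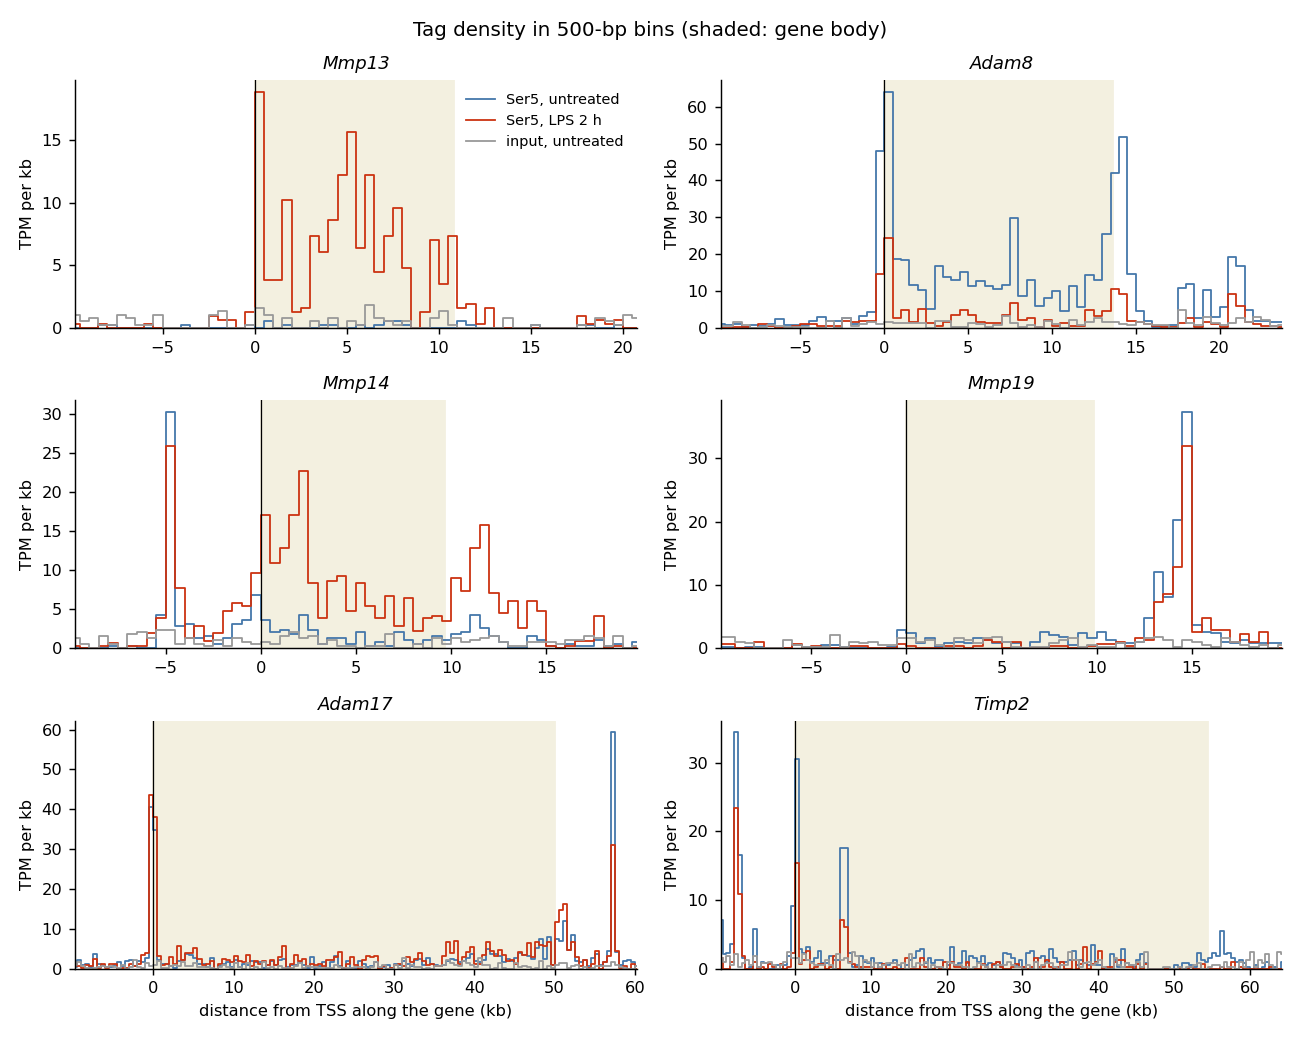
Tag density (TPM per kb, linear axes of different height) in 500-bp bins by distance (kb) from the TSS, read in the direction of each gene, for 6 members in the untreated Ser5 (blue), LPS Ser5 (red) and input (grey) libraries; shading marks the gene body. LPS tags lie along the bodies of Mmp13, with a gap near its 3′ end, and Mmp14, Adam8 is covered throughout in untreated cells, and Adam17 and Timp2 are concentrated at the TSS. Peaks outside the shading, such as the one 4710 bp upstream of Mmp14, belong to other annotated genes or to unannotated positions.

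Set beside the promoter sequences shown above, the AP-1 match did not separate the responses. Of the 4 members with it, Mmp13 and Mmp12 were higher over the body after LPS (ratios 48.7 and 2.30), Mmp9 was neither (1.29) and Mmp19 was lower (0.203). TATAAA was likewise found in members of all 3 kinds: Mmp12 and Mmp13, Mmp8 (0.777) and Mmp19. It lay wholly upstream of the TSS only in Mmp13, which was higher, and Mmp19, which was lower. Mmp14, with a ratio of 5.24, had none of the motifs. The 3 members with the highest CpG ratio (Adam17, Timp2 and Mmp14) were all above the input at the TSS in untreated cells, by 16.0, 6.96 and 6.13 times, and so was the CpG-poor Adam8, by 24.2 times. Among all coding genes tested, 72.1% were at least 2 times the input there, so these values show no link to CpG content. The CpG-poorest, Mmp13 and Mmp19, had the largest and the smallest LPS to untreated ratio. These are descriptions over 10 genes.

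The other genes of matrix proteolysis were read as named lists. Of 17 other MMP genes, 16 had at least 10 body tags, and 1 was higher after LPS (Mmp25, a leukocyte membrane-type MMP, 2.65 times, with 23 and 50 tags) and 1 lower (Mmp27), with a median ratio of 1.01. Over the body Mmp25 had 0.506 TPM per kb after LPS and 0.546 in the input. Its TSS window held 8 and 19 tags (ratio 2.89, interval 1.21 to 7.64). There it had 1.52 TPM per kb after LPS, against 0.730 in the input. Mmp24, Mmp28, Mmp16 and Mmp11, those with the most Ser5 tags among the rest, had ratios of 0.998, 1.28, 0.864 and 0.522. Of 13 other ADAM and ADAMTS genes, 1 was higher (Adamts4, an aggrecanase, 2.32 times, with 20 and 38 tags) and 1 lower (Adam33, 0.400, with 131 and 43 tags), with a median of 1.02. Adam10, the closest relative of Adam17, had a ratio of 0.857, Adam9 1.02 and Adam15 0.596. Among the other inhibitors, Reck (a membrane-anchored MMP inhibitor) had a ratio of 1.07 and Timp3 1.94, Timp4 had 9 tags over both libraries, and 0 of the 3 passed the rule over the body. Over gene bodies these 3 lists thus had counts near the 5.82% and 11.2% of coding genes. Fewer genes had 10 tags in the TSS window, where 5.71% of coding genes were higher and 14.1% lower. There, 2 were higher and 2 lower of 7 other MMP genes, and 1 and 2 of 7 ADAM and ADAMTS genes. Of 2 inhibitors, 1 was higher and 0 lower.

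Plasmin activates several MMP zymogens, and the plasminogen list held larger differences. Plau, the urokinase-type activator, went from 748 body tags to 102 with LPS, at a ratio of 0.166 (interval 0.134 to 0.205). Its receptor gene Plaur had 317 and 146 tags (ratio 0.561). Plat (19 and 37 tags, ratio 2.37) and Serpinb2 (36 and 64 tags, ratio 2.17) were also past the rule, but remained below their body inputs of 0.529 and 0.828 TPM per kb. In the TSS window after LPS, Plat had 1.84 TPM per kb against 0.796 in the input, and Serpinb2 0.480 against 0.730. Plg, the gene of plasminogen itself, had 31 and 24 tags (ratio 0.944). Among 4 partners in activation, Rhbdf2, which encodes iRhom2, the carrier that brings ADAM17 to the cell surface, was higher over the body. It had 1091 and 2495 body tags (ratio 2.79, interval 2.59 to 3.0). Its TSS window held only 9 and 6 tags (ratio 0.812, interval 0.238 to 2.56). Those levels, 0.591 and 0.480 TPM per kb, were below the input of 0.796, so no rise was seen at the start used here. Furin, which removes the prodomain of MMP14 and ADAM17, had a ratio of 0.723, and Bsg and Rhbdf1 had 1.15 and 0.535. Among genes that encode ADAM17 substrates, Tnf (ratio 9.66) and Tnfrsf1b (5.36) were higher and Il6ra (0.352) was lower, while Tnfrsf1a (1.23) was neither. Tnf was also among the genes used to check the treatment label. Over gene bodies, Adam17 itself thus differed less than its partner Rhbdf2 and its substrate gene Tnf, with intervals that did not overlap theirs.

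The coding genes most like the members at both ends of the range were found by distance over 4 values, log2 of TPM per kb plus 0.1 for the body and the TSS window in both Ser5 libraries. Nearest to Mmp13 were Il12b (distance 0.682), Lcn2 (0.849) and Tnfsf15 (1.60). Il12b, an interleukin subunit, had body levels of 0.103 and 8.34 TPM per kb, close to the 0.146 and 7.10 of Mmp13. Lcn2, which encodes lipocalin 2, had 0.249 and 5.26. Nearest to Mmp19 were Zfp850 (0.500), Barhl1 (0.684) and 1190005I06Rik (0.714), with body levels between 1.11 and 1.30 in untreated cells and between 0.340 and 0.409 after LPS.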

How the data were processed

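The authors aligned the Ser5 reads to mm9 with Bowtie, kept uniquely mapping reads with up to 2 mismatches, trimmed them to different lengths per library, and called peaks with MACS in each Ser5 library against the input at p 1e-05; versions were not given in the sources used here. The deposited peak score is -10 times log10 of the MACS p-value, the lowest being 50. The deposited tag files hold positions without values, so depth is the tag number per library. From these, tag 5′ ends were counted with Python 3.11.15 (numpy 2.4.6, pandas 2.3.3, scipy 1.17.1) over GENCODE M1 genes of NCBIM37, the assembly of mm9. Tags were divided by the library total on chromosomes 1 to 19 and X, duplicates kept, strand ignored. Levels have exact Poisson and ratios exact conditional intervals (95%), without floors since no member region was at 0. Peaks counted at an overlap of 1 bp. The counting was tested on simulated data. The members, gene lists and motifs were chosen with earlier results of these data known. All 10 members are named, and listed genes where past 2-fold over the body or among the 4 others with most tags; 2 listed genes are not reported here. Alternatives changed the scaling, duplicates, tag position, tag minimum, regions, TSS and peak score.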

Additional observations from a re-analysis of the deposited data

How the results depend on the processing

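Each of the 150 recomputed LPS to untreated ratios of the members stayed within the counting interval of the reported one, and 149 kept their side of the 2-fold rule. Part of this was fixed in advance. A change of the tag minimum cannot move a member's ratio, and several members have their TSS at the start of the gene record. Limiting counts to unique positions could remove no LPS tag. These counts therefore overstate how far the ratios were put to the test. The exception was Mmp9 with a TSS window of 500 bp either side, where the ratio was 4.06 in place of 1.83. Scaling to tags outside the peaks moved the median LPS to untreated ratio of coding genes from 0.873 to 0.940 over gene bodies (log2 -0.20 and -0.09), and that of LPS over input from 1.05 to 2.14. Under this scaling, 7 members were at least 2 times above the input over the body after LPS and 7 at the TSS in untreated cells, in place of 4 each (Mmp12, Timp1 and Timp2 were added over the body, and Mmp8, Mmp9 and Mmp19 at the TSS), and 51.7% of coding genes were above it over the body after LPS in place of 32.8%. Without the first 1 kb of the body the shares above input were 24.8% in untreated cells and 21.7% after LPS, and without a tag minimum 9.38% of TSS windows were higher after LPS in place of 5.71%. With a peak score of at least 100, 4 members kept a peak in untreated cells in place of 7. The Mmp9 TSS ratio of LPS to input turned from 2.26 to 0.804 with the TSS at the start of its gene record. The causes were not tested. The single library per condition limits every comparison: no spread between cultures is known, and the intervals of Timp1 and of the TSS windows of Mmp8, Mmp9 and Mmp12 include both 1 and a 2-fold difference.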

Other observations

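Ser5 peaks were also found outside the genes, within 20 kb of them, and the ones given here were chosen after their values were seen. Past the 3′ end of Mmp14, 6 peaks in the LPS library had midpoints between 10165 and 14585 bp from its TSS, where no gene is annotated, and 0 were called there in untreated cells. The strongest of the 6, of 1405 bp and score 670, held 34 tags in untreated cells, 112 after LPS and 12 in the input, a ratio of 4.01. Upstream of Mmp14, a peak 1626 bp from the TSS held 4 and 14 tags, with 0 in the input. Past the 3′ end of Timp2, a peak of 655 bp called in untreated cells held 26 tags against 1 after LPS, a ratio of 0.0469. Upstream of Timp2, a peak of 1105 bp with its midpoint 7628 bp before the TSS, where no gene is annotated, held 201 and 108 tags, a ratio of 0.655, nearer to 1 than the 0.418 of the Timp2 TSS window. Downstream of Adam8, 5 peaks lay beyond the gene in untreated cells, over Gm16201 and in part also over 6430531B16Rik, and 1 was called after LPS. The strongest of the 5, of 1501 bp, held 163 and 53 tags.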
